A study of Mus musculus with 12 samples.

Results

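The genes described here are the clustered histone genes, the replication-dependent genes of mouse whose symbols start with Hist1h, Hist2h, Hist3h or Hist4h. RNA sequencing counts listed 70 such symbols, and the 66 with at least 10 counts summed over 12 libraries were kept, out of 54658 genes listed and 29083 genes that pass the same minimum. They comprise 6 H1, 18 H2A, 18 H2B, 11 H3 and 13 H4 genes. The set was proposed, and tumours 4 and 20 were singled out, from the levels of these genes in these libraries, so their levels are given as a description, and neither the set nor those 2 tumours are supported by a test here. The libraries came from 9 mammary tumours of genotype Trp53R245W/+, driven by somatic Trp53R245W, a missense change in the tumour suppressor p53, and from 3 preparations of wild-type (WT) epithelium enriched from mammary glands of mice of the same cohort. All animals were female C57BL/6J X BALB/cJ F1 hybrids, and the labels give neither ages nor the promoter or cell type behind the somatic change. Tumours are called by their label numbers (1, 4, 5, 14, 17, 20, 21, 24 and 27) and epithelium libraries by 1, 2 and 3. Genotype, tissue and the prefix of the library titles (R597 for tumours, R688 for epithelium) coincided, so their effects cannot be told apart.

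Histones are the proteins around which DNA is wound. A nucleosome core holds H2A, H2B, H3 and H4, and the linker histone H1 binds where DNA enters and leaves it. A cell needs new histones when it copies its DNA, and the clustered genes supply them in S phase, when their transcription and the stability of their mRNAs both rise. Most of these mRNAs end in a short stem-loop, bound by the stem-loop binding protein Slbp, in place of a poly(A) tail, so that the amount counted in a library can also depend on how RNA was selected, which the labels do not state. Some of the genes also give polyadenylated mRNA, in particular in cells that have left the cell cycle. In bulk tissue, fewer cells of a type and less RNA per cell cannot be told apart.

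The genes lie in the Hist1 cluster on chromosome 13 (21715763 to 23934851, GRCm38), the Hist2 cluster on chromosome 3 (96219865 to 96270132), the Hist3 cluster on chromosome 11 (58948920 to 58956830) and, for Hist4h4 alone, on chromosome 6 (136801553 to 136804415). Hist1 holds 54 of the 66 genes, among them the processed pseudogene Hist1h2al, which sits apart on chromosome 13 at 51202727 to 51203065. The other clusters hold 8, 3 and 1. The annotation (GENCODE mouse release M21) lists 63 of the genes as protein coding and 3 as pseudogenes.

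A stem-loop of 16 bases with a 6-base stem was found by sequence in the transcript models of 43 of the 66 genes, at 21 to 58 bases after the stop codon (median 31). The sequences below were chosen to show the forms it took in genes whose values are described later. They are read 5′ to 3′ from the GENCODE transcripts, with 5 flanking bases on each side and the stem-loop in capitals, and all lie in the 3′ untranslated region.
Hist1h1c (H1, chr13:23739507-23739532, + strand): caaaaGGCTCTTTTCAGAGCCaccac
Hist2h2ac (H2A, chr3:96220413-96220438, - strand): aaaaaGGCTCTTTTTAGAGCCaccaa
Hist1h2bb (H2B, chr13:23747198-23747223, + strand): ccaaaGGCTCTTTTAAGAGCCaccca
Hist1h3f (H3, chr13:23544927-23544952, + strand): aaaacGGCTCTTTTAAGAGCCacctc
Hist1h4d (H4, chr13:23581945-23581970, + strand): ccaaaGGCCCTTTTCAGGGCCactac
Hist1h4b (H4, chr13:23757361-23757386, + strand): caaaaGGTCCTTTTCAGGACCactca
Hist2h4 (H4, chr3:96262934-96262959, - strand): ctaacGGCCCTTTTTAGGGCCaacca
Hist4h4 (H4, chr6:136803993-136804018, - strand): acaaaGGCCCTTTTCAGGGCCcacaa
All 12 H4 genes with a stem-loop in their model had a stem that opens with GGCCCT or GGTCCT, whereas every such H1, H2A, H2B and H3 gene opened with GGCTCT. The core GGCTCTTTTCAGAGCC was the commonest outside H4, in 3 H1, 8 H2A, 8 H2B and 4 H3 genes, and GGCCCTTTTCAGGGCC was the commonest within it, in 7. Of the 43 models, 21 ended within 100 bases of the stem-loop and 22 ran further, 13 of them over an AATAAA poly(A) signal. The other 23 models showed no stem-loop. Their lengths ran from 312 bases in Hist1h4k to 2620 in Hist2h2be. A model that stops early cannot show a stem-loop, so its absence there does not mean that the gene lacks one.

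Promoters of 57 of the 66 genes matched a RefSeq entry (GRCm38.p6; 250 bases before to 50 after the start). They were searched on both strands for the octamer ATTTGNAT (known from H2B promoters), the TATA box TATAAA, the CCAAT box and GGTCCG (a sequence of the H4 proximal promoter), and the motifs were chosen with earlier results known. GGTCCG stood in 11 of 12 H4 promoters and in 8.25% of 32851 RefSeq promoters of the same length. The octamer stood in 12 of 15 H2B and 10 of 15 H2A promoters, against 4.36% of RefSeq promoters, and in none of the H1, H3 and H4 promoters matched. CCAAT stood in all 45 matched promoters of H1, H2A, H2B and H3 genes but in 3 of 12 for H4, against 37.4% of RefSeq promoters. TATAAA stood in 33 of 57, against 13.6%. Matches to different motifs overlapped in 1 promoter, that of an H3 gene. H2A and H2B genes in back-to-back pairs share the bases between them, so their promoter counts are not independent. The following 90-base stretches end just before the RefSeq start, with matches in capitals. They were chosen as promoters that hold the motifs of their type while the genes behind them differed in level.
Hist1h2bb (H2B, chr13:23746644-23746733, + strand): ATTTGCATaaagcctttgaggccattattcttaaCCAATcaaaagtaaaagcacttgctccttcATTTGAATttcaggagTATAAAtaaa
Hist1h2bk (H2B, chr13:22035731-22035820, + strand): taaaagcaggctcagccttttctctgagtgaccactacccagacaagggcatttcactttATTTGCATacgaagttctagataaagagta
Hist1h4d (H4, chr13:23581478-23581567, + strand): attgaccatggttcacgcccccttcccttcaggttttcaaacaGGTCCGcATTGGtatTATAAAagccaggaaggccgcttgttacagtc
Hist1h4c (H4, chr13:23698459-23698548, - strand): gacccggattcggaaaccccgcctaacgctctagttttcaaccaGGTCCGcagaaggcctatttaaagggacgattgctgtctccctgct
Hist4h4 (H4, chr6:136804432-136804521, - strand): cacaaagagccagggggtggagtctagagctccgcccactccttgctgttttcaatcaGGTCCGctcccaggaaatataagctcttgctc
Hist1h4m (H4, chr13:21811656-21811745, + strand): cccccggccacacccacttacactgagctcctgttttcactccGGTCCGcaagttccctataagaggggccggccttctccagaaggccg
Hist1h4n (H4, chr13:21832198-21832287, - strand): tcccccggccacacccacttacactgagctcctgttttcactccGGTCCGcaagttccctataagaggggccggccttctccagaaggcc
A match is a description of letters and no evidence of binding.

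Library totals ran from 19695318 to 33600076 gene counts in tumours and from 24247566 to 25543872 in epithelium, and levels are counts per 1000000 (CPM) scaled by the trimmed mean of M values (TMM). On that scale a count of 3, the limit a count of 0 allows, was 0.274 CPM in tumour 4, 0.0987 to 0.127 CPM in the other tumours and 0.101 to 0.104 CPM in epithelium. Tumour 4 stood apart before any histone was counted. In it 52.0% of alignments were not unique, 22.6% of gene counts fell in Rn7sk, the 7SK small nuclear RNA, and 11.2% in mitochondrial genes, and its TMM factor was 0.557. In the other tumours Rn7sk took 1.76% to 5.26% of gene counts, and in epithelium 1.52% to 2.09%. Alignments that were not unique made up 17.1% to 27.2% in the other tumours and 8.5874% to 12.0005% in epithelium. Every tumour thus lay above every epithelium library, and the part of this difference in the values of near-identical histone genes was not tested. Alignments outside genes were 8.08% to 32.3% in tumours and 39.9% to 41.5% in epithelium. Trp53 itself averaged 48.5 ± 19.7 CPM over tumours and 43.8 ± 2.0 CPM over epithelium (SD, n = 9 and 3), and since a missense change need not alter the count, this does not check the labels. Luminal markers (Krt8, Epcam and 6 others) summed to 1217 to 6038 CPM in tumours and 2000 to 3102 CPM in epithelium, so both groups carried luminal markers. Tumour 20 had the lowest sum. Of the 8 genes 2 were called higher and 0 lower, and Krt19 and Prom1 had negative log2 fold changes (-1.23 and -0.76). Basal markers summed to 1820 CPM in tumour 20, 3805 in tumour 27 and 136 to 462 CPM in the other tumours. In epithelium the basal sum was 1126 to 1609 CPM, and 0 of 7 basal markers were called. T cell markers summed to 3.92 to 35.9 CPM in tumours and 486 to 571 CPM in epithelium, and B cell markers to 1.80 to 60.2 and 594.5 to 842 CPM; all 8 and all 6 of them were called lower. Endothelial markers summed to 141 to 451 CPM in tumours and 705 to 806 CPM in epithelium (3 of 5 called lower), and adipocyte markers to 12.3 to 109.6 CPM in tumours and 313 to 484 CPM in epithelium (1 of 4 called lower). Fibroblast markers summed to 13914.5 CPM in tumour 21, 801 to 3973 CPM in the other tumours and 2132 to 3057 CPM in epithelium (0 of 5 called). Macrophage markers summed to 317 to 1804 CPM in tumours and 460 to 486 CPM in epithelium (1 of 6 called higher). No marker of the T cell, B cell, endothelial and adipocyte lists was at 0 throughout a group. The part of these cell types in the histone values was not tested.

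The clustered histone genes together were higher in every tumour than in any epithelium library. Their summed level ran from 1212 CPM in tumour 21 over a median of 2673 to 6087 CPM in tumour 4, against 554, 485 and 621 CPM in epithelium. The tumour mean was 5.53 times the epithelium mean, and 4.29 times without tumours 4 and 20. As a plain share of gene counts, the genes took 0.133% to 0.532% in tumours and 0.0576% to 0.0719% in epithelium. Each of the 5 histone types was likewise higher in all 9 tumours than in all 3 epithelium libraries.

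**Figure D1:**
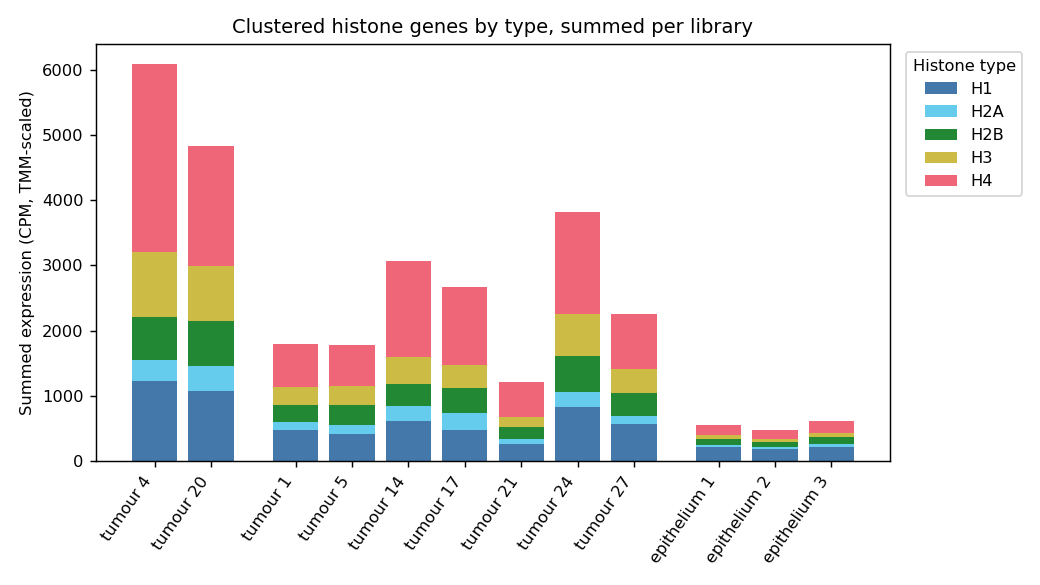
Summed level of the 66 clustered histone genes in each library, in TMM-scaled CPM on a linear axis from 0, stacked by histone type. Tumours 4 and 20 stand left at 6087 and 4826 CPM, the other 7 tumours run from 1212 to 3823 CPM, and the 3 epithelium libraries on the right from 485 to 621 CPM.

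Gene by gene, edgeR's quasi-likelihood test called 50 of the 62 genes that passed the filter on low counts higher in tumours and 1 lower at an adjusted p under 0.05. Over all 21456 genes tested, 8.89% were called higher and 11.4% lower. Since the set was chosen on these libraries, the count describes it and is not evidence for it. Among the genes called higher, Hist1h2ae, Hist1h2af, Hist1h2ah, Hist1h2al and Hist1h2ap passed the filter only through the tumours, where they are high. Their calls are therefore a description and no support. The median log2 fold change was 2.76 over the 62 genes and 0.17 over all genes tested. By type, 4 of 5 tested H1, 13 of 16 H2A, 12 of 17 H2B, 10 of 11 H3 and 11 of 13 H4 genes were called higher, with median log2 fold changes of 1.87, 3.26, 2.25, 3.27 and 3.01. In levels, 46 of the 66 genes were higher in every tumour than in every epithelium library, which holds for 8.09% of the 29083 genes. Another 1 was lower in every tumour and 19 overlapped; over all those genes, 20.1% had no overlap in either direction. It is not stated if the 9 tumours arose in 9 animals, so the p-values measure the spread between these samples.

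The calls rested on all 3 epithelium libraries, whereas the direction did not. Without epithelium library 1, 2 or 3, edgeR called 28, 25 or 31 of the genes higher, all of them among the 50. Over all genes tested, 2.26%, 2.42% or 2.45% were called higher in those fits, against 8.89% with all libraries. Of the 63 clustered histone genes tested there, 60 or 61 had a positive log2 fold change, against 59 of 62 with all libraries. In the same fits 51 or 52 of them had an unadjusted edgeR p under 0.05. Without tumours 4 and 20 the same 50 were called, with a median log2 fold change of 2.47, and 11.8% of all genes tested were called higher. Other short genes also had positive fold changes. The 372 other tested protein-coding genes with under 1000 exonic bases had a median log2 fold change of 1.06, with 12.4% of them called higher. The 46 tested histone genes under that length had a median of 2.91, with 39 called higher.

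**Figure D2:**
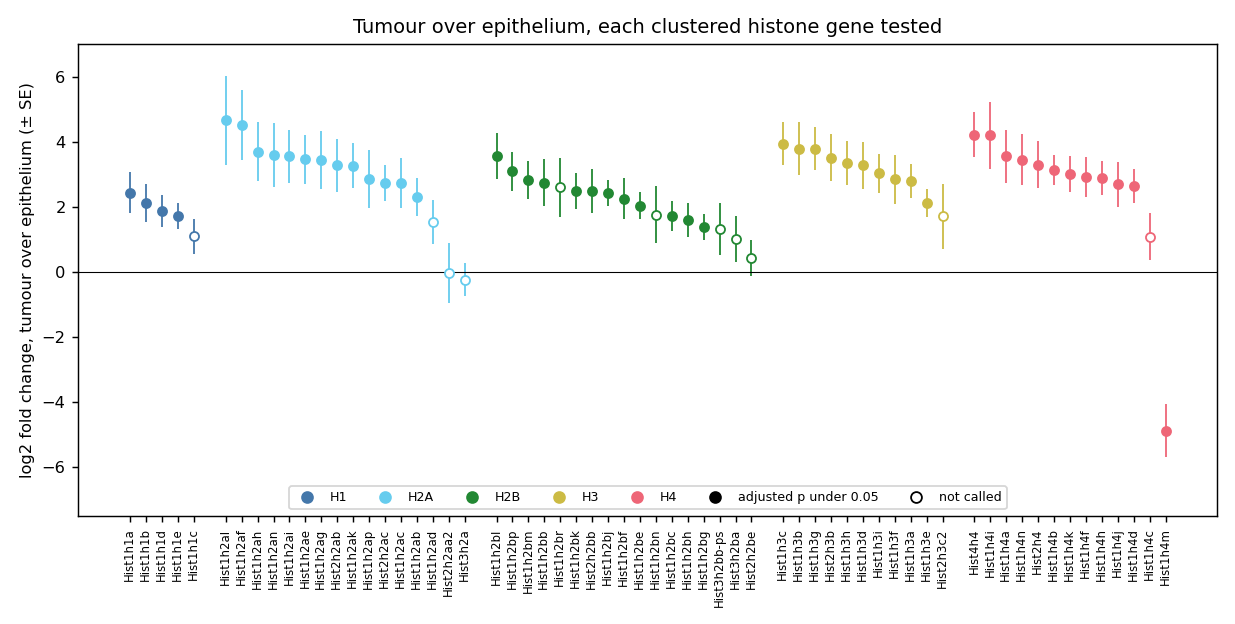
log2 fold change, tumour over epithelium, with its standard error for each of the 62 tested clustered histone genes, grouped by type and ordered by size; filled points have an edgeR adjusted p under 0.05. Of them, 50 lie above 0 and are filled, Hist1h4m alone is filled below 0, and 11 are open.

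The H1 genes, which encode linker histones, had the lowest median log2 fold change of the 5 types. Summed, they had 264 to 1225 CPM in tumours (median 574.5) and 194 to 228 CPM in epithelium. Hist1h1e, an abundant somatic H1 gene, had 81.3 to 336 CPM in tumours (median 148) and 53.5, 46.3 and 55.6 CPM in epithelium (log2 fold change 1.72, SE 0.39, edgeR adjusted p = 0.00866). It was higher in 9 of 9 tumours, and without epithelium library 2 the call was lost (adjusted p = 0.0563). Hist1h1d had 48.7 to 344 CPM in tumours (median 134), highest in tumour 4, and 41.7, 36.7 and 48.7 CPM in epithelium (log2 fold change 1.87, SE 0.50, edgeR adjusted p = 0.0208). Tumour 21 was level with epithelium library 3, and leaving out any 1 epithelium library lost the call (adjusted p 0.0743 to 0.0993). Hist1h1c, the most abundant H1 gene in epithelium and one known to give polyadenylated mRNA as well, had 71.2 to 562 CPM in tumours (median 150) and 99.9, 80.4 and 89.1 CPM in epithelium. The groups overlapped, and the difference did not pass the test (log2 fold change 1.09, SE 0.53, edgeR adjusted p = 0.158). The testis-specific linker gene Hist1h1t did not pass the filter on low counts. It had 7.96 CPM in tumour 20 and 1.05 CPM in tumour 27, at most 0.297 CPM in the other tumours, and 0.208, 0 and 0.101 CPM in epithelium.

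H2A genes, which encode 1 of the core histones, had the lowest summed level of the core types and among the largest fold differences. Their sum was 85.0 to 388 CPM in tumours (median 228), highest in tumour 20, and 25.4, 22.4 and 30.9 CPM in epithelium. Hist1h2ak had 19.4 to 151 CPM in tumours (median 34.6) and 5.09, 3.55 and 6.90 CPM in epithelium (log2 fold change 3.26, SE 0.69, edgeR adjusted p = 0.00533). Tumour 20 held its highest value, and the next tumour had 59.2 CPM. Hist2h2ac of the Hist2 cluster had 16.8 to 84.6 CPM in tumours (median 52.4) and 7.31, 5.39 and 7.94 CPM in epithelium (log2 fold change 2.72, SE 0.55, edgeR adjusted p = 0.00434), again with no overlap. Hist1h2al, annotated as a processed pseudogene, had 6.12 to 116 CPM in tumours (median 20.2), highest in tumour 17, and 0, 1.39 and 2.64 CPM in epithelium (log2 fold change 4.65, SE 1.36, edgeR adjusted p = 0.0299). Its call was lost without any 1 epithelium library (adjusted p 0.0694 to 0.114). Hist1h2al passed the filter on low counts only through the tumours, where it is high, so its call is a description and no support. Hist3h2a had 0.831 to 7.94 CPM in tumours (median 3.38) and 4.40, 5.18 and 4.06 CPM in epithelium, with no call (log2 fold change -0.24, SE 0.51, edgeR adjusted p = 0.768). Its Hist3 cluster was the only one of the 4 with no call, in 0 of 3 genes. The testis H2A gene Hist1h2aa had 13 counts in tumour 4 and 0 in the other 11 libraries.

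H2B genes, whose product pairs with H2A, had the lowest median log2 fold change of the core types. Their sum was 178 to 678 CPM in tumours (median 345), highest in tumour 20, and 92.4, 82.7 and 111 CPM in epithelium. Hist1h2bj had the smallest adjusted p among them, with 7.50 to 24.8 CPM in tumours (median 13.7) and 2.42, 2.47 and 3.11 CPM in epithelium (log2 fold change 2.42, SE 0.40, edgeR adjusted p = 0.00104). Hist1h2be had 33.1 to 131 CPM in tumours (median 63.8) and 17.1, 14.4 and 19.9 CPM in epithelium (log2 fold change 2.03, SE 0.40, edgeR adjusted p = 0.00384). Both were higher in 9 of 9 tumours than in every epithelium library. Hist1h2bb had 24.1 to 239 CPM in tumours (median 46.9), with the highest value in tumour 4, and 9.00, 10.6 and 12.3 CPM in epithelium (log2 fold change 2.74, SE 0.72, edgeR adjusted p = 0.0186). Hist1h2bc had 22.9 to 107 CPM in tumours (median 62.0) and 22.2, 16.9 and 18.5 CPM in epithelium (log2 fold change 1.72, SE 0.45, edgeR adjusted p = 0.0177). Both of these lost the call without any 1 epithelium library (adjusted p 0.0731 to 0.0911 for Hist1h2bb and 0.0652 to 0.0895 for Hist1h2bc). Hist2h2be, an H2B gene known to give polyadenylated mRNA in cells that do not divide, had 0.911 to 11.2 CPM in tumours (median 7.24) and 5.44, 5.94 and 5.51 CPM in epithelium. The groups overlapped and the test made no call (log2 fold change 0.42, SE 0.57, edgeR adjusted p = 0.622). The testis gene Hist1h2ba had 5 counts in all, each of them in tumour 4, and fell below the minimum.

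H3 genes were higher in nearly every case, 10 of 11 passing the test. Their sum was 158 to 1003 CPM in tumours (median 371) and 58.3, 49.7 and 69.1 CPM in epithelium. Hist1h3c had 15.7 to 104 CPM in tumours (median 38.9) and 2.91, 2.78 and 4.23 CPM in epithelium (log2 fold change 3.93, SE 0.67, edgeR adjusted p = 0.00134). Hist1h3g had 12.5 to 85.7 CPM in tumours (median 30.5) and 2.74, 1.95 and 3.79 CPM in epithelium (log2 fold change 3.78, SE 0.66, edgeR adjusted p = 0.00169). Hist1h3b had 16.8 to 194 CPM in tumours (median 34.2) and 4.12, 3.75 and 5.75 CPM in epithelium (log2 fold change 3.78, SE 0.83, edgeR adjusted p = 0.00664). In all 3 genes the lowest tumour lay well above the highest epithelium library. Hist1h3f had the highest tumour mean of the H3 genes, 94.6 CPM, but without tumour 4 its mean of 64.1 CPM was below that of Hist1h3e, 68.9 CPM. Hist1h3f had 26.9 to 339 CPM in tumours (median 67.6) and 14.4, 11.2 and 14.2 CPM in epithelium (log2 fold change 2.84, SE 0.75, edgeR adjusted p = 0.0193); tumour 4 held the highest value and tumour 20 the next, 119 CPM. That call was lost without any 1 epithelium library (adjusted p 0.0803 to 0.0907). Hist1h3e had 29.0 to 123 CPM in tumours (median 71.4) and 17.9, 14.2 and 18.7 CPM in epithelium (log2 fold change 2.10, SE 0.43, edgeR adjusted p = 0.00454).

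H4 genes had the highest summed level of the 5 types in every tumour, whereas in epithelium H1 was higher. Their sum was 527 to 2875 CPM in tumours (median 1201) and 157, 137 and 182 CPM in epithelium. Hist1h4d had the highest tumour mean of the set, 278 CPM, but without tumour 4 its mean of 232 CPM was below that of Hist4h4, 271 CPM. Hist1h4d had 115 to 649 CPM in tumours (median 227) and 49.0, 36.2 and 49.4 CPM in epithelium (log2 fold change 2.63, SE 0.52, edgeR adjusted p = 0.00367). Hist1h4b had the smallest adjusted p of all 66 genes, with 15.0 to 56.7 CPM in tumours (median 26.3) and 3.39, 3.62 and 3.92 CPM in epithelium (log2 fold change 3.13, SE 0.47, edgeR adjusted p = 0.000567). Hist1h4h had 58.7 to 319 CPM in tumours (median 130) and 19.7, 14.1 and 23.1 CPM in epithelium (log2 fold change 2.89, SE 0.52, edgeR adjusted p = 0.00214). All 3 were higher in every tumour. Hist4h4, the H4 gene that lies outside the large clusters, had 102 to 577 CPM in tumours (median 183) and 10.4, 14.1 and 17.8 CPM in epithelium (log2 fold change 4.21, SE 0.69, edgeR adjusted p = 0.00109). Its lowest tumour was 5.75 times its highest epithelium library. Hist1h4c, chosen after its values were seen, overlapped between groups although its promoter holds GGTCCG like that of Hist1h4d. It had 19.4 to 205 CPM in tumours (median 26.8) and 23.0, 24.5 and 23.9 CPM in epithelium (log2 fold change 1.07, SE 0.72, edgeR adjusted p = 0.301).

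Hist1h4m was the 1 clustered histone gene called lower. It passed the filter on low counts only through the epithelium libraries, where it is high, so its call is a description and no support. It had 2 counts in tumour 4, 1 each in tumours 17 and 27 and 0 in the other 6 tumours, against 20, 19 and 22 counts in epithelium (log2 fold change -4.88, SE 0.81, edgeR adjusted p = 0.00121). Its near copy Hist1h4n, chosen after its values were seen, rose: it had 8.75 to 93.2 CPM in tumours (median 17.8) and 2.84, 1.81 and 3.01 CPM in epithelium (log2 fold change 3.45, SE 0.79, edgeR adjusted p = 0.00871). The 90-base promoter stretches of Hist1h4m and Hist1h4n printed above are identical over a run of 89 bases. Of the 75-base words in their transcripts, 89.0% for Hist1h4m and 83.4% for Hist1h4n also occur in transcripts of other genes, so the counting may have split reads between copies or dropped them, and both values are uncertain.

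Levels were compared in genes with more and with less shared sequence. A total of 26 genes had more than 50% of their 75-base words in transcripts of other genes, a word length chosen here because read length is not given in the sources used, and 7 genes had no such word. The 26 summed to 164 to 887 CPM in tumours (median 362) and 52.4 to 76.1 CPM in epithelium, and 18 of 24 tested were called higher. The other 40 summed to 1048 to 5200 CPM in tumours (median 2311) and 433 to 545 CPM in epithelium, and 32 of 38 tested were called higher. Neither sum overlapped between tumours and epithelium, and no test was made between the 2 sets. In addition, 5 genes overlap another annotated gene on the same strand and 21 on the opposite strand. Since the strand setting of the counting is not given in the sources used here, reads of such pairs cannot be told apart.

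The mix of histone types differed as well. H1 made up 18.0% to 26.7% of clustered histone counts in tumours (median 21.8%) and 39.9%, 39.9% and 36.7% in epithelium, so every tumour lay below every epithelium library. H4 made up 35.7% to 47.6% in tumours (median 41.0%) and 28.3%, 28.2% and 29.3% in epithelium. H3 made up 12.9% to 17.5% in tumours and 10.2% to 11.1% in epithelium, and H2A 5.44% to 9.58% in tumours and 4.597% to 4.98% in epithelium. In these 3 types each tumour lay above each epithelium library. The share of H2B overlapped, at 10.7% to 16.997% in tumours and 16.7% to 17.9% in epithelium. Shares sum to 100%, so they are not independent, and they do not depend on the scaling between libraries. Hist4h4 alone made up 2.91% to 18.8% of the counts in tumours and 1.88% to 2.90% in epithelium.

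**Figure D3:**
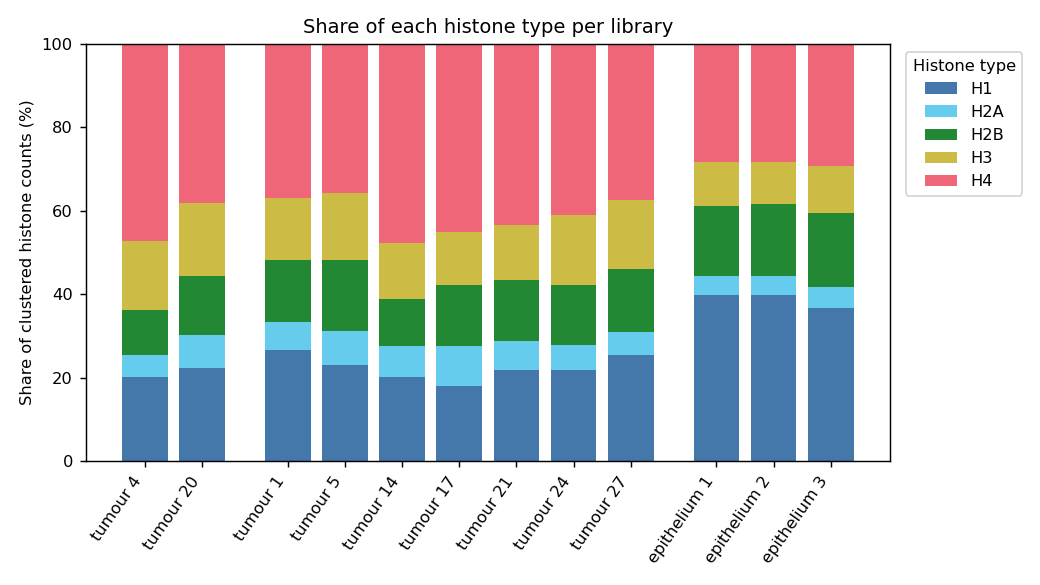
Share of the clustered histone counts taken by each type, in percent, for the 9 tumours (left, tumours 4 and 20 first) and the 3 epithelium libraries (right). H1 takes 18.0% to 26.7% in tumours and 36.7% to 39.9% in epithelium, and H4 35.7% to 47.6% in tumours and 28.2% to 29.3% in epithelium.

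The 21 genes whose model ends within 100 bases of the stem-loop had a median log2 fold change of 2.82, with 18 of 21 tested called higher. The 22 whose model runs further past the stem-loop had a median of 2.10, with 16 of 21 tested called higher. The 23 with no stem-loop in the model had a median of 3.14, with 16 of 20 tested called higher. This class can hold genes whose model stops before the stem-loop. The 3 classes thus each lay far above the median of 0.17 over all genes, and no test was made between them. H2A and H2B genes lie back to back in 14 pairs, 172 to 305 bases apart. In 6 of the 11 pairs with both genes tested both were called higher, and in the other 5 pairs at most 1 was.

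Tumours 4 and 20 had the highest summed levels, 6087 and 4826 CPM, against 1212 to 3823 CPM in the other 7 tumours (median 2258). By type, tumour 4 had 1225 CPM of H1, 331 of H2A, 653 of H2B, 1003 of H3 and 2875 of H4. Tumour 20 had 1077 CPM of H1, 388 of H2A, 678 of H2B, 847 of H3 and 1837 of H4. The other 7 tumours ranged from 264 to 833 CPM for H1, 85.0 to 256 for H2A, 178 to 552 for H2B, 158 to 636 for H3 and 527 to 1568 for H4. In every type both tumours were thus higher than all 7 others on this scale. Tumour 24 came next in total, and tumour 21 was lowest in total and in 42 of the 66 genes. The share of all genes lowest in tumour 21 is not given here, so that count is a description. Tumour 21 also had the highest sum of fibroblast markers, and the part of this in its histone values was not tested.

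The place of tumour 4 depended on the scaling. On plain totals of gene counts, the sum was 3388 CPM in tumour 4 and 5320 CPM in tumour 20, against 1333 to 3819 CPM in the other 7, so that tumour 4 came after tumours 20 and 24. On plain totals 4 other tumours were above tumour 4 for both H2A and H2B. With Rn7sk and mitochondrial genes left out of the totals, the sums were 5114 CPM in tumour 4 and 5728 CPM in tumour 20, against 1394 to 4019 CPM in the others. Tumour 20 was the highest or the next to highest on all 3 scales, and tumours and epithelium did not overlap in any type on any of them.

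Across single genes, tumours 4 and 20 were both higher than all 7 other tumours in 30 of the 66 genes. Of the 62 genes tested this was 29, or 46.8%, against 3.50% of all genes tested. Since the 2 tumours were singled out by these levels, the count is a description. Relative to the median of the other 7, the median gene stood at 2.58 times in tumour 4 and 2.43 times in tumour 20, against 0.915 and 0.993 over all genes tested. Tumour 4 held the highest tumour value in 29 genes, tumour 20 in 18, tumour 24 in 9, tumour 17 in 7, tumour 14 in 2 and tumour 27 in 1.

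The types were not raised evenly in tumour 4. Both tumours were above the others in 8 of 13 H4, 7 of 11 H3, 11 of 18 H2A and 2 of 6 H1 genes, but in 2 of 18 H2B genes. For H4 the median ratio to the other 7 tumours was 3.68 in tumour 4 and 2.30 in tumour 20, whereas for H2B it was 1.56 in tumour 4 and 2.00 in tumour 20. Tumour 4 lay below all 7 others in 6 genes, 4 of them H2B. Among these 6, it had 0 counts of Hist1h2br, 1 of Hist2h2aa2 and 3 of Hist2h3c2. These are at or below the 3 that a count of 0 allows, so the place of tumour 4 in those genes is uncertain. The genes named next were chosen after their values were seen. Hist1h4i, an H4 gene, had 426 CPM in tumour 4 and 106 CPM in tumour 20, against 21.3 to 77.5 CPM in the other 7 tumours. Hist1h2bk, an H2B gene, had 5.02 CPM in tumour 4 and 20.3 CPM in tumour 20, against 6.76 to 28.3 CPM in the others. Its back-to-back partner Hist1h2ah, an H2A gene 301 bases away, had 9.40 CPM in tumour 4 and 12.3 CPM in tumour 20, against 1.29 to 5.61 CPM in the others. Tumour 4 was therefore low for one gene of that pair and high for the other, although the promoter of Hist1h2bk holds the octamer like that of Hist1h2bb, which had 239 CPM in tumour 4. Of the 75-base words, 72.6% in Hist1h2bk and a larger share in Hist1h2ah occur in other genes, so both values are uncertain.

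**Figure D4:**
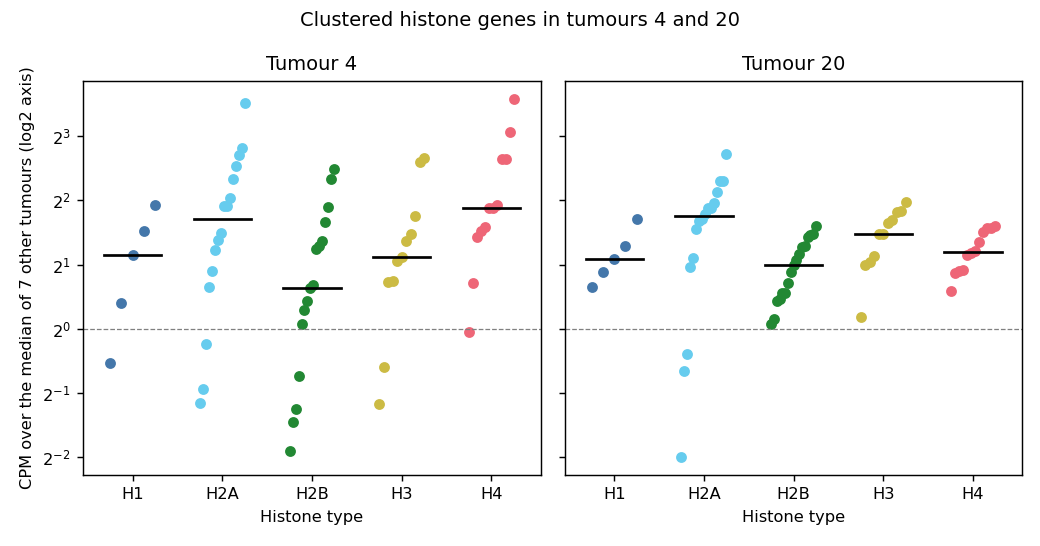
Level of each tested clustered histone gene in tumour 4 (left) and tumour 20 (right), as the ratio of its CPM to the median of the other 7 tumours, on a log2 axis by histone type; black bars are medians and the dashed line marks a ratio of 1. Median ratios are 3.68 for H4 and 1.56 for H2B in tumour 4, and 2.30 for H4 and 2.00 for H2B in tumour 20; 1 H2B gene at 0 CPM in tumour 4, and Hist1h4m, with a median of 0, are not drawn.

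Other tumours stood out in single clusters. The 8 Hist2 genes summed to 596.6 CPM in tumour 17, against 111 to 470 CPM in the other 8 tumours and 34.7, 36.0 and 43.5 CPM in epithelium, and they made up 22.3% of the histone counts of tumour 17. Hist2h4, the H4 gene of that cluster, had 358 CPM in tumour 17, a median of 146 CPM over all 9 tumours and 14.7, 15.0 and 19.7 CPM in epithelium (log2 fold change 3.29, SE 0.71, edgeR adjusted p = 0.00636). The neighbours of the Hist2 cluster were high in that tumour too: of 47 other genes within 1000000 bases, 37 had their highest tumour value in tumour 17, at a median of 2.42 on the log2 scale above the median of the other 8 tumours (genes with a tumour mean of at least 5 CPM). Tumour 17 was highest in 3 of 19 neighbours of Hist1, 1 of 30 of Hist3 and 0 of 11 of Hist4. Shares and medians over all genes are not given here, so the neighbour values are a description. Near the Hist1 cluster the 19 neighbours had medians of 0.61 in tumour 4 and 0.69 in tumour 20 on that scale, while 42 clustered histone genes there had 1.40 in each. The same neighbours had 0.63 in tumour 17 and 0.41 in tumour 1, where those histone genes had -0.33 and -0.42. High neighbours were thus not particular to tumours 4 and 20. Hist4h4 was highest in tumour 14, at 577 CPM, where the median of its 11 neighbours was 0.35 on that scale. Those neighbours had their highest median in tumour 4, at 0.94, where Hist4h4 had -0.13.

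Genes of S phase were higher too, but their order among tumours was not that of the histone genes. Of 28 listed genes that act in DNA replication or mark cycling cells, 21 were called higher and 0 lower, with a median log2 fold change of 1.83. Ccna2, which encodes cyclin A2, rose (log2 fold change 3.22, SE 0.51, edgeR adjusted p = 0.000878), as did Top2a, a DNA topoisomerase gene (2.58, SE 0.43, edgeR adjusted p = 0.00118). Pcna, the DNA polymerase clamp, averaged 130 ± 97.6 CPM over tumours and 66.6 ± 5.4 CPM over epithelium (SD, n = 9 and 3) and was not called (edgeR adjusted p = 0.207). Mki67, a marker of cycling cells, averaged 632 ± 505 CPM over tumours and 81.5 ± 26.3 CPM over epithelium, and its call (edgeR adjusted p = 0.00903) was lost without epithelium library 1 or 2 (adjusted p = 0.0596 and 0.0554). The summed level of the list was 2038 CPM in tumour 4, 3335 in tumour 20 and 1163 to 5237 in the other 7 tumours, highest in tumour 24, against 662 to 749 CPM in epithelium. The ratio of histone to S phase sums was therefore 2.99 in tumour 4 and 1.45 in tumour 20, against 0.723 to 1.68 in the other 7 tumours and 0.733 to 0.829 in epithelium. Both sums share the library and its scaling, and the ratio does not depend on the scaling.

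Short RNAs that lack a poly(A) tail were listed because most clustered histone mRNAs lack one too. Of 20 listed, 15 were tested, 8 were called higher and 1 lower, with a median log2 fold change of 1.90. Rnu11, a small nuclear RNA of the minor spliceosome, rose (log2 fold change 4.22, SE 0.86, edgeR adjusted p = 0.00458). Rprl2, a gene related to the RNA of ribonuclease P, rose by 6.96 (SE 1.66, edgeR adjusted p = 0.0111), a call lost without epithelium library 1 or 3 (adjusted p = 0.0551 and 0.0548). With 0, 0.382 and 0 CPM in epithelium, Rprl2 passed the filter only through the tumours, where it is high. Its call is therefore a description and no support. Rnu73b fell by 2.93 (SE 0.40, edgeR adjusted p = 0.000325), with 0.0700 to 0.365 CPM in tumours and 1.45 to 2.19 CPM in epithelium. It passed the filter on low counts only through the epithelium libraries, where it is high, so its call is a description and no support. Rn7sk was not called (log2 fold change 2.31, SE 1.08, edgeR adjusted p = 0.141), and without tumour 4 it passed the threshold at a smaller difference (log2 fold change 1.14, edgeR adjusted p = 0.0462). Rmrp was listed at 0 in all 12 libraries, and Rpph1 had 0.0912 CPM in tumour 4 and 0 elsewhere. Summed, the list had 442371 CPM in tumour 4, 55134 in tumour 20, 23212 to 53554 in the other 7 tumours and 14176 to 20351 CPM in epithelium. Most of that sum was Rn7sk, with 405756 CPM in tumour 4 and 47700 CPM in tumour 20. Of the 15 tested RNAs, tumour 4 was above all of the other 7 tumours in 12 and tumour 20 in 3. Over all genes tested, that held for 19.2% in tumour 4 and 12.3% in tumour 20. The part of RNA selection in the histone values was not tested.

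**Figure D5:**
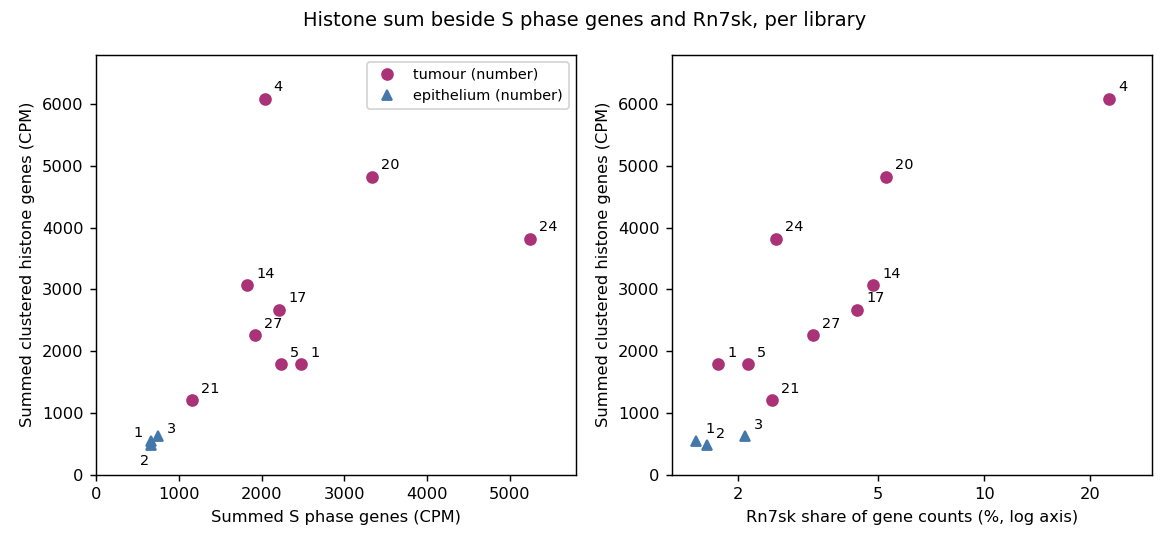
Summed level of the clustered histone genes in CPM (vertical axis) beside the summed level of 28 S phase genes in CPM (left) and beside the share of gene counts in Rn7sk on a log axis (right), 1 point a library, numbered as in the labels; circles are tumours and triangles epithelium. Tumour 24 is highest for S phase genes at 5237 CPM with 3823 CPM of histones, while tumour 4 has 2038 CPM of S phase genes, 6087 CPM of histones and 22.6% of its counts in Rn7sk.

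Histone genes outside the clusters, which have introns or poly(A) tails and were listed as replication-independent, were counted beside them. Their expression across the cell cycle was not examined, so some of them, H2afx included, may also rise in S phase. Of 11 such genes, 4 were called higher and 0 lower, with a median log2 fold change of 1.41. H1f0, a linker histone gene of cells that have stopped dividing, rose (log2 fold change 2.25, SE 0.39, edgeR adjusted p = 0.00143). H2afx, whose product marks DNA breaks when phosphorylated, rose as well (2.67, SE 0.63, edgeR adjusted p = 0.0102), a call lost without any 1 epithelium library (adjusted p 0.0522 to 0.0601). Clustered over such replication-independent histone levels, the ratio of sums was 1.70 in tumour 4, 3.15 in tumour 20 and 0.624 to 2.03 in the other 7 tumours, against 0.420 to 0.571 in epithelium, without overlap between tumours and epithelium.

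Genes that make histone mRNA or deliver histones were examined next. Of 15 tested genes of histone mRNA processing, 1 was called higher and 0 lower. That gene was Ncbp2, a cap-binding protein gene (log2 fold change 1.27, SE 0.33, edgeR adjusted p = 0.0174), whose call was lost without any 1 epithelium library (adjusted p 0.0626 to 0.0932). Slbp, whose product binds the stem-loop, averaged 51.1 ± 11.4 CPM over tumours and 43.6 ± 2.7 CPM over epithelium (edgeR adjusted p = 0.527). Npat, the coactivator of the clustered genes, averaged 70.0 ± 35.1 CPM over tumours and 54.6 ± 0.36 CPM over epithelium (SD, n = 9 and 3; edgeR adjusted p = 0.532). Neither was highest in tumour 4, at 54.2 CPM for Slbp and 38.0 CPM for Npat. Of 17 histone chaperone genes, 5 were called higher and 0 lower, among them Chaf1a (log2 fold change 2.66, SE 0.50, edgeR adjusted p = 0.00269) and Chaf1b (2.00, SE 0.42, edgeR adjusted p = 0.00534), subunits of the complex that deposits H3 and H4 on newly copied DNA.

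The minimum of 10 counts set the edge of the set. Just inside it, Hist1h2aa had 13 counts, Hist1h2bq 15 (13 of them in tumour 27), Hist1h2aj 24 and Hist1h4m 65. Just outside, Hist1h2ao and Hist1h2ba had 5 each, and Hist2h2aa1 and Hist2h3c1 had 0. The 4 members that were not tested were Hist1h1t, Hist1h2aa, Hist1h2aj and Hist1h2bq. The 11 tested without a call were Hist1h1c, Hist1h2ad, Hist1h2bn, Hist1h2br, Hist1h4c, all 3 Hist3 genes and the Hist2 genes Hist2h2aa2, Hist2h2be and Hist2h3c2. Of these 11, 10 had log2 fold changes between -0.24 and 1.76, and Hist1h2br, with at most 0.551 CPM in any library, had 2.59.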

How the data were processed

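RNA of 9 tumours and 3 epithelium preparations was made into TruSeq stranded libraries, per the labels' protocols. The authors deposited raw counts per gene, whole numbers with no normalization. Per the submitters' processing notes, reads were checked with FastQC 0.11.8, and TopHat2 2.1.1, HTSeq 0.11.0 and GRCm38 were used. The annotation release, strand setting, read length and RNA selection are not given in these sources. Groups came from the library titles. No library repeated another: chi-square values per degree of freedom were at least 153 for pairs of tumours and 18.0 for pairs of epithelium libraries. Depth was 19695318 to 33600076 gene counts, and counting limits cover counting error only.

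Counts were fitted over all genes in R 4.3.3 with edgeR 4.0.16 (filterByExpr, TMM, robust quasi-likelihood F test, group as the only term, all 12 libraries), tested first on simulated data, and adjusted by Benjamini-Hochberg over all genes tested. SE was derived from the F statistic, as the size of the log2 fold change divided by its root. Sums, shares and ratios are TMM-scaled CPM with no test. Positions, lengths and stem-loops came from GENCODE M21 and promoters from RefSeq, read with Python 3.11.15. Figures used matplotlib 3.10.9.

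Members, lists, motifs and the naming rule were chosen with earlier results of these data known. The rule named the 3 most abundant genes of each type, the 6 smallest adjusted p in each direction, a few genes by name and 2 genes of each comparison list. Segment classes, the neighbour scan and the length class were added after the values were seen. Alternatives were 2 other scalings, TMM without Rn7sk and mitochondrial genes, 2 filters, each library left out, tumours 4 and 20 left out, DESeq2 1.42.0 and limma 3.58.1 (voom).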

Additional observations from a re-analysis of the deposited data

Results flagged for a closer look

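Of 47 named genes and sums examined, 13 had a single tumour that stood apart from the other 8 by Dixon's ratio. Chance gives this in about 1 of 20 for normally distributed items not chosen by their values. CPM values need not be normally distributed, so that rate may not hold here. Tumours 4 and 20 were singled out by histone levels and the items share libraries, so the ratios describe the histone genes and support nothing. Tumour 4 was the one in 9 of them and 7 were clustered histone genes. In tumour 4, Hist1h1c reached 562 CPM, Hist1h3f 339 CPM, Hist1h2bb 239 CPM and Hist1h2aa 1.19 CPM. Hist1h4m, at 0.182 CPM in tumour 4, had 2 counts there, fewer than the 3 that a count of 0 allows, so that value cannot be told from the others. Outside the clusters, tumour 4 had 375 CPM of Pcna, 406000 CPM of Rn7sk, 1470 CPM of Rnu11 and 86.2 CPM of Rprl2. Tumour 20 stood apart for Hist1h2ak at 151 CPM and for the testis gene Hist1h1t at 7.96 CPM. Tumour 24 stood apart for Ccna2 at 227 CPM and Top2a at 677 CPM.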

How the results depend on the processing

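The log2 fold change of each named gene kept its sign under every alternative that tested it. Of the clustered histone genes, edgeR called 48 to 50 higher under the 3 other scalings and the 2 filters, 51 with DESeq2 and 53 with limma-voom. Of all genes tested, 3.98% to 8.73% were called higher under those scalings and filters, 13.6% with DESeq2 and 25.3% with limma-voom. Leaving out 1 library gave 25 to 51 clustered histone genes higher, and the lowest values came without an epithelium library. The 1 call lower, Hist1h4m, was filtered out with at least 10 counts in 9 libraries, which left 0. Over all genes, leaving out 1 library gave 506 to 2486 higher and 1496 to 2753 lower; limma-voom called 5433 higher and 5867 lower. DESeq2 called 3830 higher and 3623 lower, so that higher calls outnumbered lower ones, whereas edgeR called 1908 higher and 2438 lower. Leave-one-out ranges for the lists were 1 to 4 higher for replication-independent variants, 0 to 2 higher and 0 to 1 lower for histone mRNA processing, 2 to 5 higher for chaperones, 7 to 23 higher for S phase genes and 1 to 9 higher for short RNAs. Chaperones called higher were 3 without a filter, short RNAs called lower were 0 with the stricter filter, and histone mRNA processing had 2 higher without tumours 4 and 20, 3 with DESeq2 and 4 higher and 1 lower with limma-voom, which also called 1 replication-independent variant lower. The cause was not tested beyond the smaller number of libraries or genes in those fits. No paired analysis was made, because the labels pair no tumour with an epithelium library and the 2 groups are numbered separately.

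Depth limits genes near 0.274 CPM in tumour 4 and near 0.0987 to 0.127 CPM in the other libraries, and 3 epithelium libraries limit the calls. The rank of tumour 4 depends on the scaling, as given above.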
